A study of Bos taurus with 6 samples.

Results

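The regions described here were the 100-kb bins of bovine autosomes 18, 19 and 25 in a whole-genome bisulfite sequencing (WGBS) data set. Bins were laid from position 1 of each chromosome, those within 5 Mb of either chromosome end were left out, and a bin was kept when every library had at least 100 reads in it. A read here means 1 methylated or unmethylated call at a CpG cytosine, with the strands of a CpG counted as separate cytosines. All 1429 bins of these chromosomes in range passed, 560 on chromosome 18, 540 on chromosome 19 and 329 on chromosome 25, out of 22156 bins kept on the 29 autosomes. The other 26 autosomes contributed 20727 bins, after 44 of 20771 bins failed the read minimum.

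The cells were rumen epithelial primary cells (REPC) taken from 1 bull calf of the Holstein breed, aged 2 weeks and raised on milk replacer, and all groups therefore carry the genome of a single animal. The control group (CO) had 3 untreated replicates, and the butyrate group (BT) had 3 replicates kept for 24 h with 5 mM butyrate, a volatile fatty acid made by rumen microbes that inhibits histone deacetylases. Each of the 6 libraries held 18793438 to 23842285 reads at CpG cytosines over the whole genome. The library names end in L5 for BT replicates 1 and 3 and in L6 for the other 4, which is read here as a sequencing lane although the labels do not call it one, so that no control was in lane 5.

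In mammals, methyl groups sit mostly on the cytosines of CpG pairs and cover the bulk of the genome. Short CpG-rich stretches known as CpG islands, many of them at gene promoters, are often free of methylation, whereas gene bodies and repeats are usually methylated. Gene-rich chromosomes tend to be rich in GC and in CpG islands, so that their mean methylation combines these opposite contributions.

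The name gene-dense was checked on the RefSeq annotation of a later cattle assembly, ARS-UCD2.0, counted over whole chromosomes. Chromosome 19 had 18.8 protein-coding genes per Mb, chromosome 18 had 18.7 and chromosome 25 had 16.7, ranks 1, 2 and 3 among the 29 autosomes. The other autosomes ranged from 4.07 to 13.4 genes per Mb, with a median of 7.28. The files themselves use the UMD3.1 build, and gene positions on it were not analysed here. Bins are therefore given by position only.

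The chromosomes were also the richest in CpG. A bin of chromosomes 18, 19 and 25 held a median of 1965 CpG cytosines seen in at least 1 library (interquartile range 1352 to 2931). Bins of the other autosomes held a median of 1035 (738 to 1556), so the medians stood in a ratio of 1.90. The median was 2284 on chromosome 19, 1840 on chromosome 18 and 1805 on chromosome 25, again ranks 1, 2 and 3, and no other autosome was above 1549. Reads followed CpG content. The median per bin and library was 939 reads on chromosomes 18, 19 and 25 and 439 elsewhere, while the reads per seen cytosine and library were 0.539 and 0.544. They came to 0.503 on chromosome 18, 0.507 on chromosome 19 and 0.663 on chromosome 25. Because a cytosine can be counted only once it is seen, these densities are of observed cytosines and not of the reference sequence.

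Chromosomes 18, 19 and 25 were less methylated than the other autosomes in every library. The pooled level, which is methylated reads over all reads in the bins, was 64.2%, 64.3% and 64.1% in CO replicates 1 to 3, and 64.9%, 64.9% and 65.0% in BT replicates 1 to 3. The bins of the other autosomes had 65.7%, 65.6% and 65.5% in CO and 66.3%, 66.1% and 66.3% in BT. Within a library the difference was −1.37 points on average (SD 0.122, n = 6), and it ran from −1.51 to −1.18. An exact two-sided sign-flip permutation test over the 6 libraries gave p = 0.03125, the smallest value that 6 libraries can give. Such a p refers to the libraries of 1 calf and not to other animals. It does not cover the spread between chromosomes either, and the separate levels of the other autosomes ran from 61.2% to 68.1%. Both limits hold for every sign-flip test below. Counting error was small, since the half-width of the Wilson 95% interval of a library's level on these chromosomes did not exceed 0.0765 points. Such intervals reflect counting alone, because reads without molecular identifiers are not independent molecules.

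**Figure D1:**
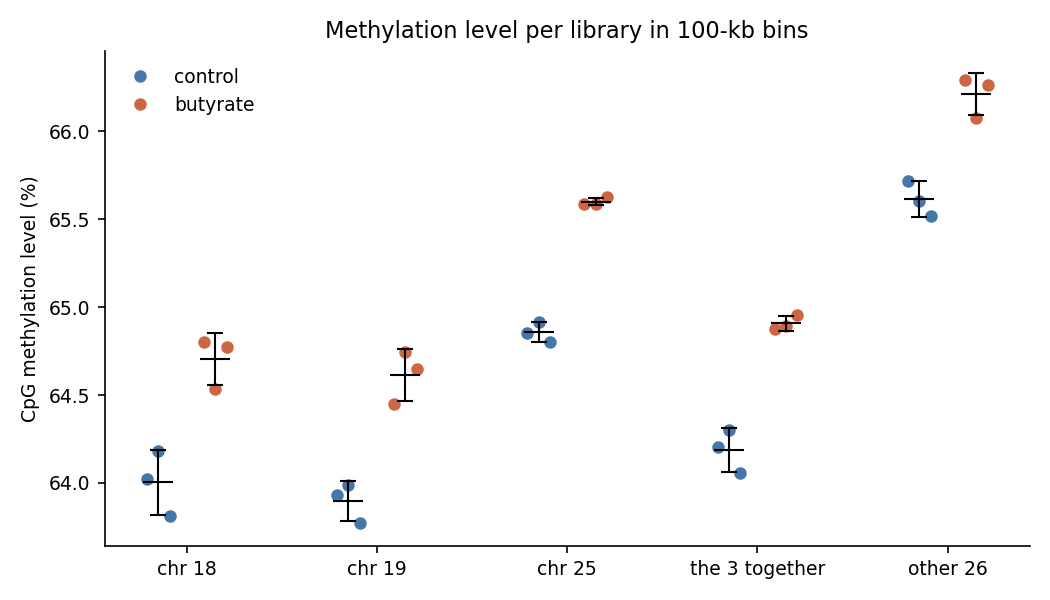
CpG methylation level (%, vertical axis) in each library, for chromosomes 18, 19 and 25, for the 3 chromosomes together and for the other 26 autosomes. Points are libraries, blue for control and orange for butyrate, and black bars are the mean ± SD of 3 libraries; in every column the butyrate points lie above the control points, and the other autosomes lie above the 3 chromosomes together. The vertical axis does not start at 0.

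Each of the 3 chromosomes lay below the other autosomes, but by different amounts. The difference was −1.56 points for chromosome 18 and −1.66 for chromosome 19, at mean levels of 64.4% ± 0.411 and 64.3% ± 0.410 (SD over 6 libraries, both groups together). Chromosome 25 had 65.2% ± 0.409, and its difference was −0.685 points. All 3 differences had 1 sign in 6 of 6 libraries (exact sign-flip p = 0.03125 each, also after Benjamini-Hochberg adjustment over the 3). Chromosome 25 was above chromosome 18 by 0.876 points and above chromosome 19 by 0.974 (exact sign-flip, adjusted p = 0.0469 for both). This order depended on the bins and cytosines used. In the unweighted mean of bins, where each bin counts alike, chromosome 25 was the lowest of the 3, with a difference of −3.27 points from the other autosomes against −2.11 for chromosome 18 and −1.04 for chromosome 19, and the median bin levels were 62.5%, 63.7% and 64.9%. In pooled reads, chromosomes 18 and 19 differed by 0.098 points, which was not of 1 sign in all libraries (exact sign-flip p = 0.25). From the lowest pooled level upward they ranked 4 (chromosome 19), 5 (chromosome 18) and 9 (chromosome 25) of 29, behind chromosomes 29, 7 and 27 at 61.2%, 63.0% and 63.8%. Restricting the comparison to cytosines covered in all 6 libraries, 1.37% of those seen in these bins, turned the joint difference to +0.296 points (exact sign-flip p = 0.0625) and those of chromosomes 19 and 25 to +1.82 and +0.825, with chromosome 18 at −2.86. With 10 Mb left out at the chromosome ends, that of chromosome 25 was +0.0596 (exact sign-flip p = 0.53125) and that of chromosome 19 was −2.50. With no ends left out, chromosome 18 was at −3.04, and chromosomes 19 and 25 were at −1.07 and −1.08. In the pooled reads of the bins kept by the rule, all 3 chromosomes lay below the median of the other autosomes, 66.3%, but were not the lowest of the 29. The relation of gene density to level was not computed. The next most gene-dense autosomes, ranks 4 to 7, were chromosomes 23, 29, 15 and 7, with 13.4, 12.5, 11.6 and 11.4 genes per Mb. Their levels were 65.3%, 61.2%, 66.4% and 63.0%, so a level under that median was not particular to chromosomes 18, 19 and 25. Over the 29 autosomes, as a description, Pearson's r between median CpG density and level was −0.352 and Spearman's rho was −0.371. All of these points share the same 6 libraries.

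**Figure D2:**
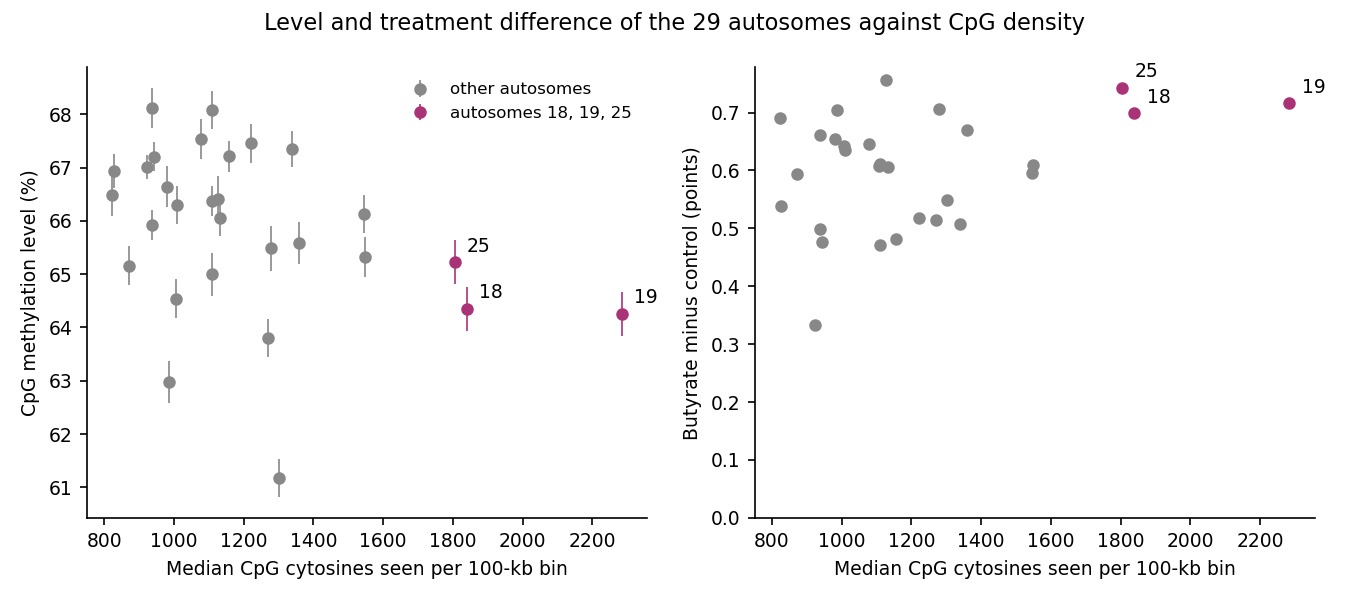
Left, CpG methylation level (%, mean ± SD of 6 libraries) of each of the 29 autosomes against its median number of CpG cytosines seen per 100-kb bin; right, the difference of group means, butyrate minus control, in percentage points. Chromosomes 18, 19 and 25 (purple, numbered) lie farthest right at medians of 1805 to 2284, with levels of 64.3% to 65.2% and treatment differences of 0.699 to 0.743 points. The left vertical axis does not start at 0.

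These chromosomes had more bins from 40% to under 60% methylation and jointly fewer bins in every other range. Their lowest bin, at 7.68%, was below the lowest of the other autosomes, at 8.89%. On average over the libraries, 35.1% ± 1.6 (SD, n = 6) of the bins of chromosomes 18, 19 and 25 had a level from 40% to under 60%, compared with 26.6% ± 0.680 elsewhere. The difference was 8.51 points and ran from 7.51 to 10.2 over the libraries. Bins from 60% to under 80% made up 54.3% ± 1.38 against 58.8% ± 0.301, with 55.8% on chromosome 18, 58.1% on chromosome 19 and 45.4% on chromosome 25, and for chromosome 19 the difference was not of 1 sign (exact sign-flip p = 0.40625). Bins of 80% or more made up 9.45% ± 0.458 against 12.6% ± 0.572. Bins under 40% were also rarer, at 1.20% ± 0.121 against 2.03% ± 0.0795. This range rests on few bins, 13 of the 1429 by the mean of the 6 libraries. All these joint differences had 1 sign in 6 of 6 libraries (exact sign-flip p = 0.03125 each), and they kept it when every bin was thinned to 100 reads, where the bins under 40% came to 1.88% and 2.25%. Chromosome 25 had the most bins from 40% to under 60%, 43.2%, followed by chromosome 18 with 34.3% and chromosome 19 with 30.9%.

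**Figure D3:**
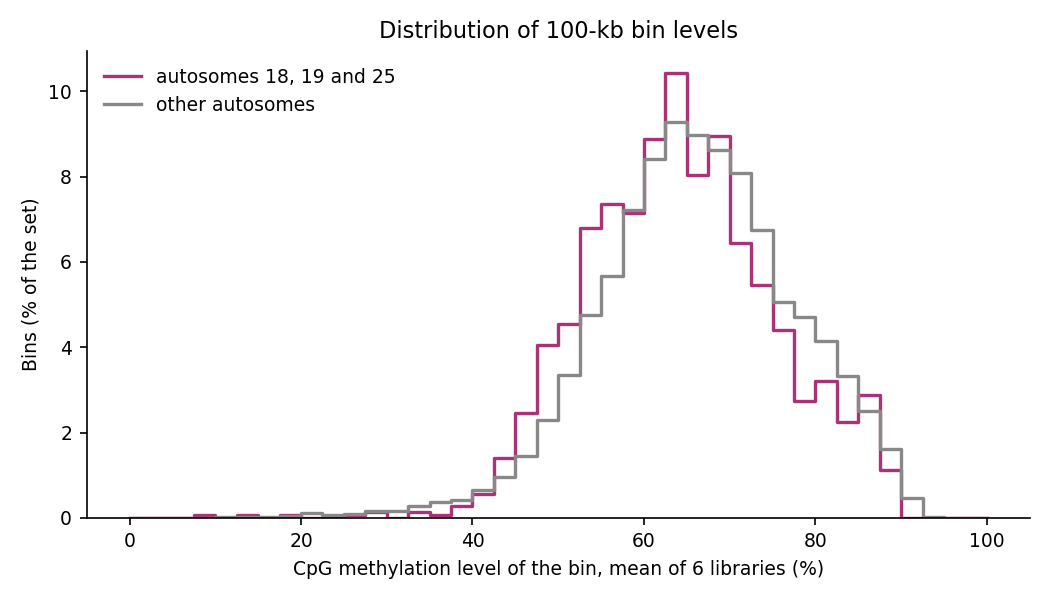
Distribution of the CpG methylation level of 100-kb bins (mean of 6 libraries, %, in steps of 2.5 points), as the percentage of bins in each set. The bins of chromosomes 18, 19 and 25 (purple) exceed those of the other autosomes (grey) between about 42.5% and 57.5% and fall below them from 70% to 85%.

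Over all bins, the levels on these chromosomes were spread slightly less than on the other autosomes, but not at every CpG density. After each bin was thinned to 100 reads, which makes the binomial error alike, the SD over bins was 12.1 points ± 0.0793 (SD over 6 libraries) on chromosomes 18, 19 and 25 and 12.4 ± 0.0806 elsewhere. The within-library difference was −0.282 points (range −0.456 to −0.151, exact sign-flip p = 0.03125). This was not shared by the 3 chromosomes. The SD was 11.8 on chromosome 18 and 11.98 on chromosome 19, while on chromosome 25 it was 12.7, above the other autosomes. From the smallest SD upward they ranked 8, 11 and 23 of the 29 autosomes. In quartile classes of CpG density, from sparsest to densest, the joint SD differed by +1.11, +1.01, −0.682 and −1.06 points, each with 1 sign in 6 of 6 libraries (exact sign-flip p = 0.03125). A joint SD also holds the differences in level between the 3 chromosomes. Within chromosomes 18, 19 and 25 the SD of the second class was 11.8, 11.8 and 12.1, beside 12.1 elsewhere. In the sparsest class it was 11.98, 11.9 and 7.43 (4 bins on chromosome 25), beside 11.6. With 10 density classes the joint SD differed by −1.01 points in the sparsest, and by +2.87, +1.43 and +2.19 in classes 2 to 4. Classes 5 to 7 had no single sign. Without chromosome 18 the difference over all bins was −0.103 points and no longer of 1 sign in all libraries, and the interquartile range differed by −0.167 points (exact sign-flip p = 1). The difference in SD was −0.0154 points in bins of 1 Mb (exact sign-flip p = 0.875) and −0.0150 with no chromosome ends left out (exact sign-flip p = 0.625). Bin levels were well repeated between libraries, with a mean Pearson's r of 0.936 over the pairs of libraries (0.931 to 0.940) for these bins. Neighbouring bins resembled each other, with r = 0.431 between adjacent bins and 0.130 at a distance of 10 bins, so bins are not independent observations.

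The level of a bin was related to its CpG density in different ways on the 3 chromosomes. Across the 329 bins of chromosome 25, denser bins had higher levels (Pearson's r = 0.285, Spearman's rho = 0.334). Across the 540 bins of chromosome 19 they had lower levels (r = −0.173, rho = −0.158), and across the 560 bins of chromosome 18 there was little relation (r = 0.079, rho = 0.103). These are descriptions over neighbouring bins of the same libraries. Over all 1429 bins the opposed relations left an r of 0.040, beside −0.011 for the other autosomes, and a rho of 0.066 beside 0.059.

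The same contrast appeared when bins were compared with equally dense bins of the other autosomes. The 22156 bins were divided at the quartiles of CpG density, at 752, 1071 and 1640 seen cytosines. From the sparsest to the densest, these quartile classes held 5.11%, 9.87%, 22.0% and 63.0% of the bins of chromosomes 18, 19 and 25. In order of rising density, their level differed from that of the other autosomes by −0.975, −3.53, −2.70 and −0.759 points, with 1 sign in 6 of 6 libraries in each class (exact sign-flip p = 0.03125 each, also after Benjamini-Hochberg adjustment over the 4). The difference was thus larger in the middle classes than in the densest one, where most of these bins lay. Giving the other autosomes the read shares of these chromosomes over 10 density classes moved the overall difference from −1.37 to −1.19 points (range −1.30 to −1.04, exact sign-flip p = 0.03125). Giving them the read shares over the 4 classes of 500-bp windows used further on moved it to −0.722 (range −0.845 to −0.565, exact sign-flip p = 0.03125).

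Chromosomes 19 and 25 moved in opposite directions along this scale. In the sparsest class, the 12 bins of chromosome 19 had a level of 75.1%, 9.71 points above the other autosomes, and the 4 bins of chromosome 25 had 54.9%, a difference of −10.4. Both values rest on few bins. In the second class chromosome 19 had 71.9% in 42 bins (+4.15 points) and chromosome 25 had 58.9% in 30 bins (−8.90). In the third class chromosome 19 was at 65.8% in 93 bins, −0.0829 points from the other autosomes and not of 1 sign (exact p = 0.8125), whereas chromosome 25 was at 59.7% in 108 bins (−6.17). In the densest class the order turned, with 63.8% in 393 bins of chromosome 19 (−1.67) and 66.4% in 187 bins of chromosome 25 (+0.929). These are pooled reads, so deep bins weigh more, and unweighted levels are not given by chromosome and class. The deepest bin of chromosome 25, whose class is not given here, held 35602 of its 398260 reads in CO replicate 1. Chromosome 18 lay below the other autosomes in every class, with differences of −2.63, −5.76, −1.64 and −0.963 points. Apart from the third class of chromosome 19, all of these differences had 1 sign in 6 of 6 libraries (exact sign-flip, p = 0.0341 after Benjamini-Hochberg adjustment over the 12).

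A finer scale separated CpG-poor from CpG-rich sequence. The bins were cut into 500-bp windows, which were classed by the number of CpG cytosines seen, 1 to 5, 6 to 15, 16 to 30, or over 30. Per Mb, chromosomes 18, 19 and 25 had 123 windows of the densest class against 40.3 on the other autosomes, and 648 of the sparsest class against 932. The densest class received 36.6% of the reads of these chromosomes and 31.3% of the reads elsewhere. Their mean level in the 4 classes was 66.9% ± 0.410, 71.2% ± 0.292, 72.3% ± 0.284 and 52.8% ± 0.608 (SD, n = 6). The densest class was the least methylated, on these chromosomes as on the other autosomes, where it had 53.9% ± 0.492.

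Compared with windows of the same class elsewhere, the 3 chromosomes jointly differed by −0.0781 points at 1 to 5 cytosines (exact p = 0.53125), −1.51 at 6 to 15, +0.279 at 16 to 30 and −1.06 over 30 (exact sign-flip p = 0.03125 for the last 3). The difference at 16 to 30 was −0.0577 without the deepest cytosines described next (exact sign-flip p = 0.125). In windows of 1000 bp with doubled limits, the corresponding differences at these last 2 classes were +1.37 and −1.88, and the sparsest class came to −0.411 with 1 sign in 6 of 6 libraries (exact sign-flip p = 0.03125). These joint values again averaged unlike chromosomes. In windows of 1 to 5 cytosines, chromosome 19 had 71.6%, 4.63 points above the other autosomes, and chromosome 25 had 61.2%, a difference of −5.78. In windows of over 30 cytosines the places were exchanged, with 47.7% on chromosome 19 (−6.14) and 60.2% on chromosome 25 (+6.32). Chromosome 18 lay between them in both classes, at −0.684 and −2.85 points. Of the 12 combinations of chromosome and class, all but chromosome 18 at 16 to 30 and chromosome 19 at 6 to 15 had 1 sign in 6 of 6 libraries (exact sign-flip, p = 0.0375 after Benjamini-Hochberg adjustment over the 12).

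Very deep cytosines touched the densest class. Cytosines with more than 135 reads summed over the libraries, which are the deepest 0.1% on the autosomes, took 23.8% of the reads in windows of over 30 cytosines on the other autosomes. They took 28.9% of those on chromosome 25, but 3.25% on chromosome 18 and 3.35% on chromosome 19. Without them the joint difference in this class turned from −1.06 to +0.956 points. Chromosome 18 turned likewise, from −2.85 to +0.419. Chromosome 19 stayed lower, at −3.1 points, and chromosome 25 stayed higher, at +7.76. In windows of 1 to 5 cytosines the removal moved the joint difference only to −0.0221 and those of chromosomes 19 and 25 to +4.62 and −5.79. In windows of 16 to 30 cytosines, chromosome 18 came to −0.488 with 1 sign in 6 of 6 libraries, chromosome 19 to +0.176, and chromosome 25 to +0.210 with its single sign lost (exact sign-flip p = 0.0625). What these deep cytosines are was not tested.

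**Figure D4:**
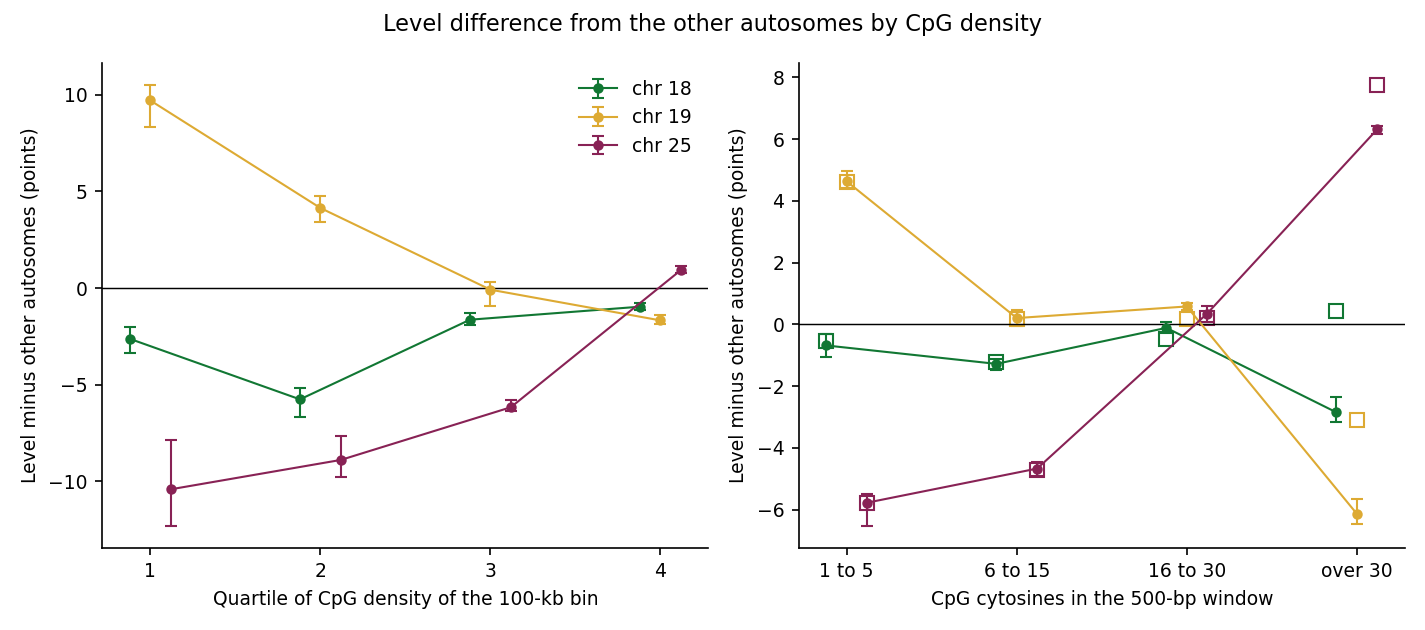
Level of chromosomes 18 (green), 19 (yellow) and 25 (purple) minus that of the other autosomes, in percentage points, by quartile of CpG density of 100-kb bins (left, sparsest to densest) and by the number of CpG cytosines in 500-bp windows (right). Points are means of 6 libraries and bars run from the lowest to the highest library; open squares on the right leave out cytosines with more than 135 reads. Chromosome 19 falls from above to below the zero line, from +4.63 to −6.14 on the right, and chromosome 25 rises from −5.78 to +6.32.

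The share of CpG-dense windows without methylation was counted window by window, so that a few deep windows could not dominate. Each library had between 14156 and 15846 windows of over 30 cytosines with at least 10 reads on chromosomes 18, 19 and 25. Of these, 32.3% ± 0.366 (SD, n = 6) had a level under 20%, compared with 38.2% ± 0.255 on the other autosomes, a difference of −5.95 points. Windows of 80% or more made up 40.6% ± 0.560 against 32.6% ± 0.489, a difference of +7.97 points. Both had 1 sign in 6 of 6 libraries (exact sign-flip p = 0.03125 each, also after adjustment over the pair). Leaving out windows that hold one of the deepest cytosines gave −7.09 and +7.25 points.

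The 3 chromosomes therefore had a smaller proportion of unmethylated dense windows but more of them per Mb. With the reads of all libraries pooled, 5570 dense windows were under 20%, which is 39.0 per Mb against 15.2 per Mb elsewhere. Chromosome 19 had 48.1 per Mb, chromosome 18 had 37.4 and chromosome 25 had 26.6. As a share of dense windows with at least 10 reads, those under 20% came to 35.2% on chromosome 19, 30.6% on chromosome 18 and 28.8% on chromosome 25. All 3 were below the other autosomes in every library, with mean differences of −2.96, −7.63 and −9.37 points. The median level of a dense window, with reads pooled, was 71.9% on these chromosomes and 64.1% on the others.

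**Figure D5:**
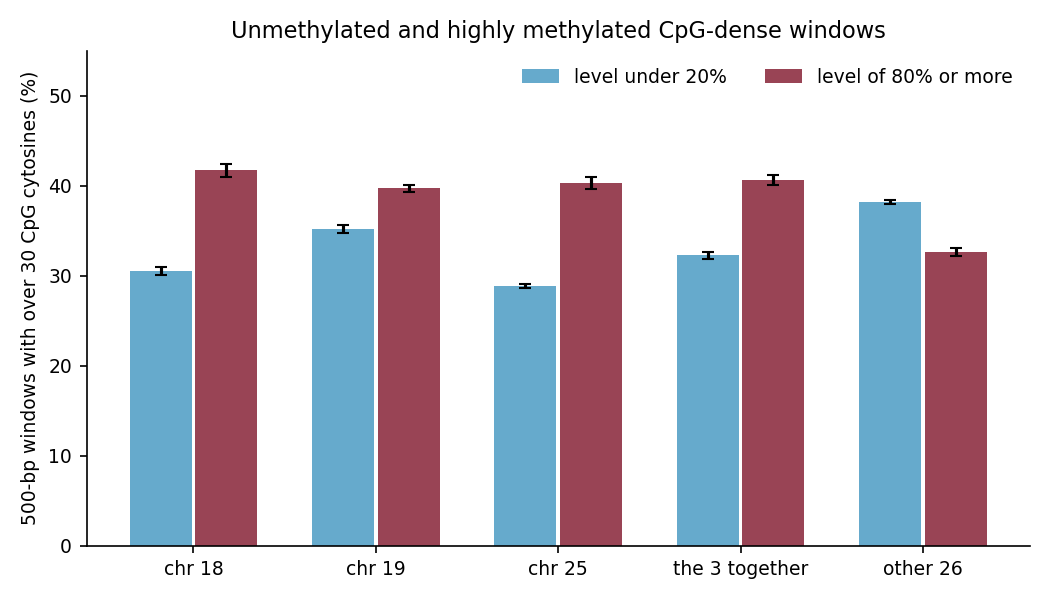
Percentage of 500-bp windows with over 30 CpG cytosines and at least 10 reads that had a methylation level under 20% (blue) or of 80% or more (red), for chromosomes 18, 19 and 25, the 3 together and the other 26 autosomes. Bars are means and error bars the SD of 6 libraries; highly methylated windows outnumber unmethylated ones on the 3 chromosomes, 40.6% to 32.3%, and not on the other autosomes, 32.6% to 38.2%.

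Single bins ranged from 7.68% to 89.8%. The lowest was chr19:38500001-38600000, with 7.69%, 8.06% and 9.10% in CO replicates 1 to 3 and 7.24%, 6.46% and 7.54% in BT, on 2229 to 2917 reads a library. It held 5101 CpG cytosines, compared with the median of 2284 on its chromosome, and it lay in the longest run of low bins there, chr19:38400001-38700000, at 16.4% ± 1.24 (SD, n = 6). A low bin means here one under the 10th percentile of all 22156 bins, 52.1%. The longest low runs of the other chromosomes were longer, higher in level and poorer in CpG. On chromosome 18 it was chr18:30000001-30800000, with 8 bins, 49.6% ± 1.14 and a median of 665 cytosines a bin. On chromosome 25 it was chr25:23800001-24700000, with 9 bins, 49.5% ± 1.26 and a median of 1281. Low bins made up 13.9% of chromosome 18, 8.70% of chromosome 19 and 19.5% of chromosome 25, which is 13.2% of the 1429 bins, compared with 9.78% of the bins of the other autosomes.

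The lowest single bin of chromosome 18 was chr18:17800001-17900000. Its levels were 23.8%, 27.4% and 26.1% in CO and 26.5%, 27.1% and 29.5% in BT, so that the groups overlapped. The lowest of chromosome 25 was chr25:32400001-32500000, at 18.4% ± 1.65, where 52.8% of the reads fell on the deepest cytosines. Without those it was at 24.4%. At the other end stood chr19:10200001-10300000 at 89.8% ± 1.84, chr18:16000001-16100000 at 88.9% ± 1.31 and chr25:17300001-17400000 at 88.2% ± 0.766. None of these highest bins held any of the deepest cytosines.

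With butyrate, the level of chromosomes 18, 19 and 25 was higher in all 3 libraries than in any control. The means were 64.2% ± 0.123 in CO and 64.9% ± 0.0406 in BT (SD, n = 3 each), a difference of 0.719 points. The exact two-sided permutation test of 3 against 3 gave p = 0.1, the smallest value this design allows, so the difference could not pass 0.05. It was 0.699 points on chromosome 18, 0.716 on chromosome 19 and 0.743 on chromosome 25, each without overlap of the groups. Within the L6 libraries, which hold all controls, the difference of BT replicate 2 from the control mean was 0.707 points. For BT replicates 1 and 3, treatment and lane cannot be told apart.

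Other autosomes moved too. Their joint level was 65.6% ± 0.101 in CO and 66.2% ± 0.118 in BT, a difference of 0.598 points, and 25 of the 26 showed no overlap between the groups. Their separate differences ran from 0.332 to 0.757 points with a median of 0.607. Those of chromosomes 25, 19 and 18 ranked 2, 3 and 6 of 29. The gap between chromosomes 18, 19 and 25 and the others changed by 0.121 points with butyrate, from −1.43 ± 0.110 to −1.31 ± 0.119 (exact permutation p = 0.3, with overlap). With the other autosomes reweighted to the same CpG densities, the change was 0.0179 points (exact permutation p = 1). In the unweighted mean of bins overlap was lost, with a change of 0.167 points (exact permutation p = 0.1), and likewise without CO replicate 2 (0.183). Over all left-out libraries the change ran from 0.0598 to 0.183. Within the L6 libraries it was 0.243, from 1 BT library against 3 controls, which allows no test. In windows of 1 to 5 cytosines the treatment difference was 0.630 points on these chromosomes and 0.252 elsewhere, a change of 0.378 without overlap (exact permutation p = 0.1, and 0.4 after Benjamini-Hochberg adjustment over the 4 window classes). In the third quartile class of bins the change had the opposite sign, −0.268 points (exact permutation p = 0.1, and 0.4 after adjustment over the 4 classes).

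The treatment difference was also taken by CpG density, and the differences between density classes were not tested. From the sparsest to the densest class of bins it was 0.429, 0.116, 0.379 and 0.797 points on chromosomes 18, 19 and 25, and 0.109, 0.457, 0.647 and 0.695 points on the other autosomes. On the 3 chromosomes the groups did not overlap in the denser pair of classes (exact permutation p = 0.1 each) and overlapped in the sparser pair. In 500-bp windows it was 0.630, 0.517, 0.492 and 0.999 points from the sparsest to the densest class, without overlap in any of them (exact permutation p = 0.1 each), beside 0.252, 0.443, 0.524 and 0.858 elsewhere. Among dense windows, those of 80% or more went from 40.2% ± 0.467 in CO to 41.0% ± 0.0668 in BT, without overlap, and by 0.808 points on the other autosomes, also without overlap. Those under 20% were at 32.4% ± 0.438 and 32.1% ± 0.191 and overlapped (exact permutation p = 0.3). The spread of bin levels was 12.1 points in both groups, with a difference of −0.0392 (exact permutation p = 0.7). With no chromosome ends left out this difference was 0.113 without overlap (exact permutation p = 0.1), and its sign turned under other alternatives too.

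No single bin passed the genome-wide test. In limma on the log2 ratio of methylated to unmethylated reads, with Benjamini-Hochberg adjustment over 27035 bins of all sequences, 0 of the 1429 bins and 0% of all bins had an adjusted p under 0.05. At an unadjusted p under 0.05, 45 of the 1429 bins were higher in BT, 3.15% against 3.89% of all bins, and 14 were lower, 0.98% against 1.69%. The mean was higher in BT in 915 bins, 64.0% against 59.7% of all bins, with 64.3% on chromosome 18, 64.1% on chromosome 19 and 63.5% on chromosome 25. The groups did not overlap and BT was higher in 131 bins, 9.17% against 7.83%, and did not overlap with BT lower in 39 bins, 2.73% against 3.33%. In this fit both shares of small p-values were a little below those of all bins, which was not tested. The fit did not weight bins by their reads. Bins of these chromosomes held more of them, a median of 939 a library against 439 on the other autosomes. None of these shares was therefore compared at like depth. With the level in percent in place of the log2 ratio, 55 of the 1429 bins were higher in BT at an unadjusted p under 0.05, beside 1030 of 27035. In that fit 16 were lower, beside 482 of all bins. The difference between 64.0% and 59.7% was not tested, and the share of all bins was 61.0% at a minimum of 200 reads per bin. Centring each library on its median lowered the share of bins higher in BT to 54.9%, against 51.5% of all bins. With lane as a term in the fit, the share was 59.3%, against 55.7% of all bins.

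The bins with the smallest p-values show the size that such differences reached. In chr19:39500001-39600000 the level was 62.8%, 57.6% and 57.9% in CO and 73.9%, 70.4% and 68.1% in BT, on 357 to 507 reads. Its log2 ratio was higher by 0.73 (SE 0.15), which ranked 12 among the 27035 bins by p-value. In chr18:26100001-26200000 the means were 66.2% ± 1.23 and 74.1% ± 2.12, and the log2 ratio was higher by 0.55 (SE 0.13). In the other direction, chr18:20800001-20900000 had 71.4% ± 2.65 in CO and 64.6% ± 0.435 in BT, and chr25:31300001-31400000 had 68.6% ± 4.42 and 58.9% ± 4.42. None of these 4 passed the adjustment, with an adjusted p of 0.882 for each in limma.

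Differentially methylated regions (DMRs) could be tested in few places. Of 8874 windows of 500 bp in which each library had a cytosine with at least 10 reads, 429 lay in the bins of chromosomes 18, 19 and 25. Of those, 284 were on chromosome 25, and 28.7% of the 429 fell within chr25:30000001-31000000, so the tested windows do not represent the 3 chromosomes. A DMR needed q under 0.05 in logistic regression and a difference over 10 points. There was 1 among the 429 windows, 0.233% against 0.789% of all windows tested. It was chr25:19037501-19038000, with 62%, 30% and 58.8% in CO and 66.9%, 61.1% and 71.9% in BT, on 50 to 139 reads. The groups overlapped, since BT replicate 2 lay under CO replicate 1, and CO replicate 2 stood far below the other controls. The pooled difference was 16.3 points (q = 0.0396). The logistic model does not allow for spread between replicates, and with a quasi-binomial F test, which does, 0 windows passed, with 16 of the 429 at an unadjusted p under 0.05, 3.73% against 5.35% of all windows. In the logistic model, leaving out 1 library gave 1 to 4 DMRs. The 4 came without BT replicate 3, 0.932% against 0.834% of all windows.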

How the data were processed

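WGBS was made by the authors from 3 control and 3 butyrate-treated REPC samples with a Pico Methyl-Seq kit. Per the labels, the reads were trimmed with Trim Galore 0.4.1 and aligned with Bismark to the UMD3.1 build. The deposited files give, for each covered CpG cytosine, counts of methylated and of unmethylated reads, with the strands apart. The sources differ on read length and on single-end or paired-end runs. The first 29 chromosome accessions were taken as autosomes 1 to 29. Bin levels, differences and exact tests were computed with Python 3.11.15, NumPy 2.4.6, SciPy 1.17.1 and pandas 2.3.3, and bins were fitted with limma 3.58.1 in R 4.3.3 on log2 ratios of the counts. Levels are pooled counts, so deep cytosines weigh more. Thinning drew 100 reads per bin without replacement. The limma fit and the logistic regression were run on simulated data with binomial error only. Those runs held no spread between replicates and do not show how the tests behave with it.

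Groups came from the labels. The methods speak of biological replicates, all from cells of 1 calf, without saying whether they were separate cultures, and p-values therefore measure the spread between these samples, which may be technical. Same-numbered CO and BT libraries did not deviate together (r of bin deviations −0.00876, −0.0233 and 0.0063), and neither did differently numbered ones (−0.0105 to 0.0199). Counting error lowers such an r, so these values cannot decide whether the samples were paired. The labels give no pairing, and numbers were not used to pair samples in the main tests. The chromosomes, tests and classes were chosen with earlier results of these data known. Named bins are the lowest and highest of each chromosome, the longest run of low bins of each, and the 2 rising and 2 falling bins with the smallest p-values in limma. Levels by gene feature were not analysed here, because no annotation of the build was used. Alternatives covered read minimums, bin size, chromosome ends, deep or fully covered cytosines, lanes, blocks and left-out libraries or chromosomes.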

Additional observations from a re-analysis of the deposited data

How the results depend on the processing

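Over 26 results, 280 of 305 alternatives kept the side of the threshold, or for counts stayed within 1.5 times, and 273 of these also kept the sign. The other 7 concern differences that were not called, the treatment difference of the spread (up to 0.333, with the interquartile range) and the level difference from the other autosomes in windows of 1 to 5 cytosines (0.00187 without CO replicate 3). For level and spread differences the threshold is 1 sign in all libraries or no overlap of the groups. Leaving out a library cannot undo either once it holds, so those alternatives could not differ. The rising and falling named bins counted as kept unless the sign turned or the adjusted p fell under 0.05. The tally is therefore not a measure of robustness. Cytosines covered in all 6 libraries, which were 1.37% of those seen in these bins and held 13.3% of their reads, turned the level difference from the other autosomes to 0.296 points, that of chromosome 19 to 1.82 and that of chromosome 25 to 0.825; 54.0% of these cytosines, and 55.5% of those elsewhere, lay in windows of over 30 cytosines, and the cause was not tested. Leaving out 10 Mb at both chromosome ends turned that of chromosome 25 to 0.0596. Without the deepest cytosines, the difference in windows of 16 to 30 cytosines became −0.0577 and that in windows of over 30 became 0.956. Windows of 1000 bp with doubled limits gave −0.411 in the sparsest class, now of 1 sign in all libraries. Reweighting the other autosomes to the same window densities gave an overall difference of −0.722; this and the other reweightings and the removal of windows with deep cytosines were chosen after seeing the data.

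The difference in spread lost its single sign with the interquartile range (−0.167), bins of 1 Mb (−0.0154), no ends left out (−0.0150) and without chromosome 18 (−0.103). With no ends left out, the treatment difference of the spread was 0.113 without overlap. The change of the level difference with butyrate lost its overlap in the unweighted mean of bins (0.167) and within the L6 libraries (0.243, from 1 BT library against 3 controls, which allows no test). With the replicate block the change stayed at 0.121 and the groups still overlapped. There it had 1 sign in 3 of 3 same-numbered pairs, which is a different criterion (exact p = 0.25, the smallest possible). The change ran from 0.0598 to 0.183 over the left-out libraries, with no overlap only without CO replicate 2. The replicate block left the treatment difference of the level at 0.719 and 0 bins called.

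There were 0 DMRs with a minimum of 20 reads per cytosine (1.11% of all windows), with a difference over 20 points (0.282%) and with the quasi-binomial test (0%), 2 with a minimum of 5 reads, both lower in BT (0.328% against 0.247% of all windows), 1 with the replicate block (0.233% against 0.699%), and 1 to 4 without 1 library (0.233% to 0.932%, against 0.631% to 0.879%). The 4 came without BT replicate 3, and 2 each without CO replicate 1, CO replicate 3, BT replicate 1 or BT replicate 2. In bins of 1 Mb, 85.9% of 142 bins were higher in BT, against 73.5% of all. These shares were neither tested nor compared at like depth. The 100-kb bins of these chromosomes held a median of 939 reads a library, against 439 on the other autosomes. Limma called 0 bins under every alternative. Depth, at 0.539 reads per seen cytosine and library, limits these data to bins and pooled windows, and single cytosines were not compared.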
